A study of Homo sapiens with 4 samples.

Results

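Pericentromeric peaks are the STARR-seq peaks whose summit lay in 1 of 10 windows of hg38 around the centromeres of chromosomes 1, 2, 5, 7, 10, 16, 17, 20, 21 and 22. The windows ran from 120 to 145 Mb on chromosome 1, 89 to 97 Mb on chromosome 2, 45 to 51 Mb on chromosome 5, 57 to 63 Mb on chromosome 7 and 38 to 43 Mb on chromosome 10. On the other 5 chromosomes they ran from 34 to 47 Mb on 16, 21 to 28 Mb on 17, 25 to 31 Mb on 20, 5 to 13 Mb on 21 and 10 to 19 Mb on 22. Position alone chose the peaks. They numbered 22061 of the 260678 peaks that the 4 lists held on chromosomes 1 to 22 and X, with 5273 under DMSO, 5564 under SHP1705, 5871 under MG132 and 5353 under the combination. They were set against the 98486 peaks on the rest of the same 10 chromosomes.

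In STARR-seq, genomic fragments are cloned into the transcribed part of a reporter plasmid, and fragments with enhancer activity are recovered as RNA of themselves. The plasmids carried fragmented DNA of MDA-MB-231, the human triple-negative breast cancer line that was also the host, grown in RPMI-1640 with serum. Cells received DMSO, 10 µM SHP1705 (a stabilizer of the clock repressor CRY2), 100 nM MG132 (a proteasome inhibitor), or 10 µM SHP1705 with 100 nM MG132. The drugs were added before the plasmid library was transfected, and polyA RNA was taken 8 h after transfection. Each treatment had 1 library and 1 peak list, so every difference compares libraries with no replicate check, and no p-value is given. The SHP1705 library stood apart in depth, with 118324303 fragments of 299 bp against 27289266 to 29717604 fragments of 346 to 355 bp in the other 3. Intervals below are 95% intervals and cover counting error only.

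Human pericentromeres are built from tandem repeats, chiefly alpha satellite at the centromere itself and simple satellites such as those of chromosomes 1 and 16 beside it. They also hold recently duplicated gene copies, and on the short arms of acrocentric chromosomes the arrays of ribosomal RNA genes. The name major satellite belongs to the mouse repeat. Because satellite copies are nearly alike, a short fragment can align to many of them, and a pile of fragments there need not come from that one copy. The DNA copy number of these repeats in the plasmid library and its reads were not analysed here, so more reporter RNA and more plasmid copies cannot be told apart.

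No genome sequence was used, so the repeat class under a peak was not checked, and the content of the windows was described by annotated genes. The windows spanned 93 Mb, of which 56.9 Mb (61.2%) were the longest stretch of each window without any gene of the RefSeq table. These lengths are by coordinate, and whether the build holds sequence throughout them was not checked. These gene-free stretches held 4479 of the 5273 DMSO peaks, 4451 of the 5564 SHP1705 peaks, 4633 of the 5871 MG132 peaks and 4281 of the 5353 combination peaks. The remaining 36.1 Mb held genes, so the windows were not satellite alone. No annotated gene overlapped 94.96% of the DMSO, 89.8% of the SHP1705, 92.7% of the MG132 and 94.5% of the combination peaks. The sequences at hand were therefore those of the minority, the gene starts and microRNAs.

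Of 333 RefSeq promoters in the windows (GRCh38.p14, 250 bases before to 50 after the gene start), 47 lay at least partly under a peak, 44 of them in 1 list and 3 in 2 lists. The 3 held by 2 lists are printed here 5′ to 3′ on the strand of the gene, with the bases under a peak in capitals, since they are the gene starts with peaks in more than 1 list. LOC107985433 lies at chr20:30289919-30290218 on the minus strand, NOTCH2 at chr1:120069613-120069912 on the minus strand and LOC124904392 at chr1:120665071-120665370 on the plus strand.
LOC107985433: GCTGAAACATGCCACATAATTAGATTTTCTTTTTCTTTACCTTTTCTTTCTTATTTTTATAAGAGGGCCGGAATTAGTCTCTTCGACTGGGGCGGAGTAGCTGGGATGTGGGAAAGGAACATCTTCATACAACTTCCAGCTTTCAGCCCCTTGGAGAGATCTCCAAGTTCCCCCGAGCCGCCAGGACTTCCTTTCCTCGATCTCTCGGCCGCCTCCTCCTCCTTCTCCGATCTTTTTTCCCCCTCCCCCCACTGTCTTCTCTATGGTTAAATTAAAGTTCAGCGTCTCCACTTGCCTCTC
NOTCH2: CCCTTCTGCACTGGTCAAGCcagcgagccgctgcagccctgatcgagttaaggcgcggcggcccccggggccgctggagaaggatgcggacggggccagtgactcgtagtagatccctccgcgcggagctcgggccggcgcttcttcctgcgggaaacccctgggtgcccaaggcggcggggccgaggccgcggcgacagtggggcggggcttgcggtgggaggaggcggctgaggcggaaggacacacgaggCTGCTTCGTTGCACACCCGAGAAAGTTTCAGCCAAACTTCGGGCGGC
LOC124904392: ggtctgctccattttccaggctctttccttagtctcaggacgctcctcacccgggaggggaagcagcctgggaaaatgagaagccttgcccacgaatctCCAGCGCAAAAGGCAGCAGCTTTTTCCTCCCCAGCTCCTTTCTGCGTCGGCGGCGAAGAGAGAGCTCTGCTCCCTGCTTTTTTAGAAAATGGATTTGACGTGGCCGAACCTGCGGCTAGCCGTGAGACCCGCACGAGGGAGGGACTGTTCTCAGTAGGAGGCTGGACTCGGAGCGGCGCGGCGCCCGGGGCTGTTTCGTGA

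All 300 bases of the LOC107985433 promoter lay under a peak, with a height of 8.38 in DMSO and 6.45 in MG132. Height is the number of fragments over the summit per 1000000 fragments of the library (FPM). At NOTCH2, the gene of a Notch receptor, 67 bases lay under a peak, at the 2 ends of the promoter. The peak at the gene start was the SHP1705 one with 1.86 FPM, and the other was the DMSO one with 2.96. The DMSO and SHP1705 peaks therefore lay on either side of the promoter and did not overlap. At LOC124904392, 201 bases lay under peaks of 0.744 FPM in SHP1705 and 2.42 in MG132. The SHP1705 peak, from 120665170, covered all 201. The MG132 peak, from 120665362, reached only the last bases of the promoter, which ends at 120665370. SHP1705 held peaks at 34 of the 333 window promoters (10.2%), DMSO at 3 (0.901%), MG132 at 5 (1.502%) and the combination at 8 (2.40%). On the rest of the same chromosomes SHP1705 held peaks at 15.1% of 16375 promoters, DMSO at 1.45%, MG132 at 2.11% and the combination at 1.64%, so SHP1705 led there too. Among the window promoters the tallest peak had 17.9 FPM, on chromosome 2 in SHP1705 alone. That peak covered all 300 bases of the STARD7-AS1 promoter and 40 bases of the promoter of STARD7, a lipid transfer protein gene. The letters GGAAT, the unit of some simple satellites, or their reverse complement stood in 32.4% of the window promoters and in 36.4% of all 35116 promoters of the same length. The LOC107985433 promoter held GGAAT 1 time, and NOTCH2 and LOC124904392 did not hold it. The CENP-B box, searched on both strands, stood in 24 of all 35116 promoters (0.0683%) and in none of these 3. A match of letters is a description of the window only.

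Of 17 microRNA genes in the windows 3 lay at least partly under a peak, all copies of MIR6724 on chromosome 21: MIR6724-1, MIR6724-3 and MIR6724-4. The sequence table held 12 hairpins of the windows, and of the 3 only MIR6724-4 was among them. MIR6724-4 lies at chr21:8432530-8432621 on the plus strand. It is shown because the MG132 and combination peaks there had the same start and end, 8432121 and 8432562, and that end is the last base of the mature microRNA, whose seed (bases 2 to 8) is in capitals.
hsa-miR-6724-5p: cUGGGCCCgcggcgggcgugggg

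The pileup was 5.72 FPM in MG132 and 7.13 in the combination, and DMSO and SHP1705 had no peak there. MIR6724-1 had 5.9897 FPM under DMSO, 3.74 under MG132 and 6.07 under the combination, and MIR6724-3 had 7.07, 4.14 and 7.31, again with no SHP1705 peak. This microRNA has several near-identical copies beside the ribosomal RNA genes, among which aligned fragments cannot be placed with certainty.

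The windows held peaks far more densely than the arms of the same chromosomes. They made up 7.15% of the length of the 10 chromosomes and held 24.0% (23.4 to 24.5) of their peaks under DMSO, 13.9% (13.5 to 14.2) under SHP1705, 18.3% (17.9 to 18.8) under MG132 and 20.3% (19.8 to 20.8) under the combination. The density in the windows was close to level over the lists, at 56.7 peaks per Mb under DMSO, 59.8 under SHP1705, 63.1 under MG132 and 57.6 under the combination. On the rest it ranged more widely, from 13.8 in DMSO to 28.6 in SHP1705, with 21.7 in MG132 and 17.4 in the combination. The lower share of the SHP1705 list therefore went with more peaks outside the windows, not with fewer inside. Within the windows, gene-free stretches held 78.7, 78.2, 81.4 and 75.2 peaks per Mb in DMSO, SHP1705, MG132 and the combination. Their length includes 21.7 Mb on chromosome 1 and 10.4 Mb on chromosome 16. In these, 17 and 7 bins of 1 Mb held no peak in any list, which lowers the density. Share and density of the windows depend on the strength asked of a peak, since among peaks with a fold of at least 5 the share was 15.3% under DMSO, 14.0% under SHP1705, 11.9% under MG132 and 13.4% under the combination. At that limit the shares of all lists but SHP1705 moved by over 1.5 times, and the 4 shares lay closer together.

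Peaks were not spread evenly along the windows. Of 93 bins of 1 Mb, 69 held at least 1 peak and 24 held none, 17 of the empty ones on chromosome 1 and 7 on chromosome 16. The empty bins formed an unbroken block on each, from 126 to 143 Mb on chromosome 1 and from 39 to 46 Mb on chromosome 16. Window length, peaks per Mb and the share of bases covered by peaks all count these empty bins. The fullest bin was 48 to 49 Mb on chromosome 5, with 242 DMSO, 311 SHP1705, 255 MG132 and 231 combination peaks. It was followed by 123 to 124 Mb and 124 to 125 Mb of chromosome 1, with 1017 and 934 peaks over the 4 lists, and by 59 to 60 Mb of chromosome 7 with 915. A set of 14 bins held 50% of all pericentromeric peaks.

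**Figure D1:**
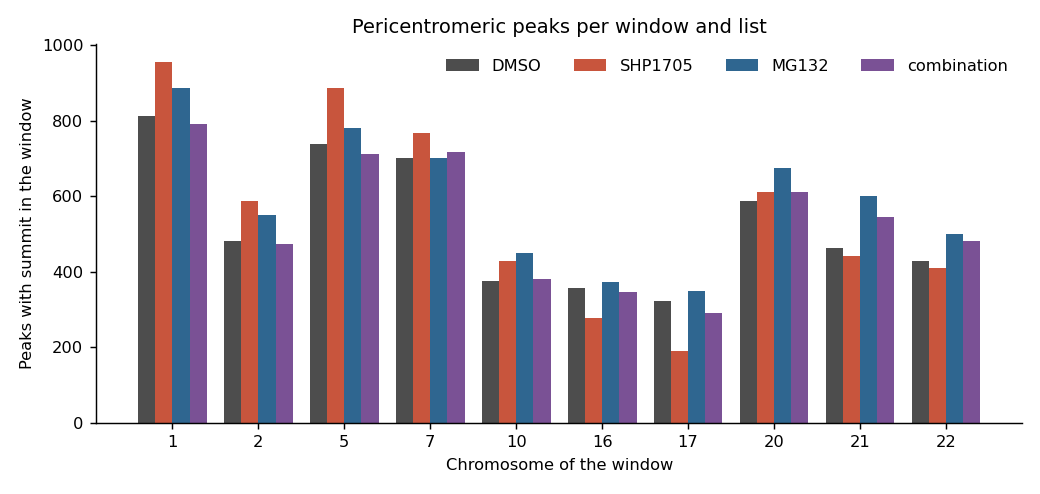
Number of peaks with a summit in each of the 10 windows (bars, from 0), by chromosome and list, 1 library per bar. SHP1705 has the tallest bar on chromosomes 1, 2, 5 and 7 and the shortest on chromosomes 16, 17, 21 and 22.

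The lists differed most by chromosome in SHP1705. On chromosome 17 the window held 322 DMSO, 190 SHP1705, 350 MG132 and 291 combination peaks. SHP1705 thus had 0.590 times the DMSO count there, and 0.364 times in the gene-free stretch, with 99 peaks against 272. Chromosome 16 also had fewer SHP1705 peaks, with 357 under DMSO, 279 under SHP1705, 374 under MG132 and 347 under the combination. On chromosome 2 the order was turned, with 482, 589, 550 and 474 peaks, 1.22 times as many in SHP1705 as in DMSO. Chromosome 5 was alike, with 739, 886, 782 and 712 peaks, and chromosome 1 had the most in every list, with 813, 956, 888 and 792. The acrocentric chromosomes 21 and 22 had the highest share of their peaks in the window. On chromosome 21 it was 54.3% under DMSO, 35.2% under SHP1705, 49.1% under MG132 and 51.7% under the combination, and on chromosome 22 it was 49.1%, 25.7%, 44.9% and 49.5%. These shares do not allow for how much of each chromosome the window takes up. Under DMSO the 8 Mb window of chromosome 21 held 463 peaks and the 9 Mb window of chromosome 22 held 430. The 6 Mb window of chromosome 5 held 739, and the 13 Mb window of chromosome 16 held 357.

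Pericentromeric peaks were wider than those of the arms in 3 of the 4 lists. The median width was 478 bp under DMSO, 443 bp under SHP1705, 478 bp under MG132 and 481 bp under the combination. On the rest it was 422, 451, 427 and 426 bp. SHP1705 was the exception, and its caller accepted peaks from 299 bp. Among peaks of at least 355 bp, the minimum of the combination list, the SHP1705 median was 483 bp in the windows and 476 bp on the rest, which turned the order, while among the 47822 strongest peaks of each list it was 482 and 497 bp. The wide tail differed more than the medians. Peaks of at least 1000 bp made up 8.86% of the window peaks under DMSO, 7.51% under SHP1705, 9.52% under MG132 and 9.004% under the combination, against 1.79%, 16.8%, 1.82% and 1.62% on the rest. Wide peaks were thus commoner in the windows in DMSO, MG132 and the combination, and commoner on the rest in SHP1705.

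The median window peak reached 8.85 FPM under DMSO, 1.05 under SHP1705, 8.14 under MG132 and 8.44 under the combination. The rest gave 8.11, 0.778, 5.31 and 6.99, so that the median ratio of windows to rest was 1.09, 1.35, 1.53 and 1.21. Levels between lists depended on the processing. With the 47822 strongest peaks of each list the window median was 1.73 FPM under SHP1705, 17.2 under MG132 and 12.9 under the combination, and scaled by the rest in DMSO units it was 10.9, 12.4 and 9.79. The ratio of windows to rest among the strongest peaks was 1.085 under SHP1705, 2.60 under MG132 and 1.68 under the combination. The upper quartile was 20.02 FPM in the windows and 12.05 on the rest in DMSO, 18.4 and 8.14 in MG132, 17.6 and 10.8 in the combination, and 2.14 and 1.89 in SHP1705. The tallest peak in the windows was above the tallest on the rest in DMSO (7606 against 626), MG132 (6386 against 455) and the combination (6752 against 319), and below it in SHP1705 (407 against 2217).

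**Figure D2:**
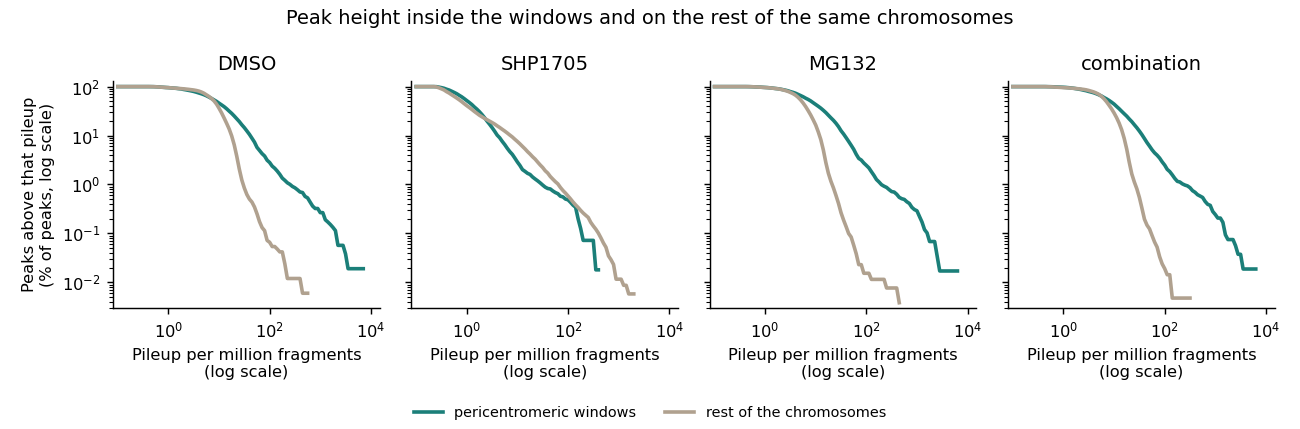
Share of peaks (%, log scale) whose pileup per 1000000 fragments (log scale) is above the value on the horizontal axis, in the windows and on the rest of the same chromosomes, 1 panel per list. The window curve runs further to the right in DMSO, MG132 and the combination, up to 7606, 6386 and 6752, and below the rest at high pileup in SHP1705, where it ends at 407 against 2217.

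Of the 100 tallest peaks of a list on chromosomes 1 to 22 and X, 69 lay in the windows in DMSO, 71 in MG132, 74 in the combination and 4 in SHP1705. All but a few of those in DMSO, MG132 and the combination were in gene-free stretches, with 67, 69 and 71. In SHP1705 only 1 of the 4 was. Of the tallest peaks in the windows, chromosome 1 gave 28 under DMSO, 29 under MG132 and 27 under the combination, and chromosome 5 gave 19, 24 and 21. Both chromosomes 1 and 5 thus led in all 3 lists. Of the 4 in SHP1705, 3 lay on chromosome 21 and 1 on chromosome 1.

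Fold, the pileup over the local background of the authors' peak caller, was lower in the windows than on the rest in DMSO, MG132 and the combination, and nearly level in SHP1705. Its median was 5.44 under DMSO, 5.07 under SHP1705, 5.75 under MG132 and 5.77 under the combination inside the windows, and 24.5, 5.03, 20.7 and 23.0 on the rest. A fold of at least 20 was reached by 7.72%, 2.55%, 8.04% and 8.93% of the window peaks, against 67.9%, 4.63%, 52.5% and 62.3% on the rest. Window peaks were also closer together. The median distance from a summit to the nearest summit of the same list was 2901 bp under DMSO, 2480 bp under SHP1705, 3140 bp under MG132 and 3133 bp under the combination, against 23683, 9382, 15359 and 19235 bp on the rest. SHP1705 thus differed least between windows and rest, in fold and in spacing.

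Pericentromeric peaks recurred between lists far more often than peaks of the arms. A peak overlapped one of another list by at least 1 bp in 68.2% of cases under DMSO (66.9 to 69.4), 64.4% under SHP1705 (63.2 to 65.7), 64.9% under MG132 (63.7 to 66.2) and 67.9% under the combination (66.6 to 69.1). On the rest the shares were 19.2%, 12.5%, 15.6% and 16.4%. Peaks also covered more of the windows, with 3.33%, 3.29%, 3.77% and 3.40% of their bases against 0.628%, 2.02%, 0.994% and 0.795% of the rest, and the part of this coverage in the sharing was not tested. Without the SHP1705 list the shares were 61.3% under DMSO, 58.5% under MG132 and 61.5% under the combination. Gene-free stretches gave the most sharing, with 74.1% under DMSO, 74.8% under SHP1705, 75.3% under MG132 and 77.0% under the combination. In the gene-holding remainder it was 35.1%, 23.0%, 26.3% and 31.3%, closer to the chromosome arms.

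Single pairs of lists were alike in the windows. Of the DMSO peaks, 46.5% overlapped a SHP1705 peak, 51.0% an MG132 peak and 48.2% a combination peak, against 11.4%, 10.2% and 8.84% on the rest. Sharing by window was highest on chromosome 7, with 81.2% under DMSO, 75.3% under SHP1705, 80.7% under MG132 and 79.8% under the combination. It was lowest on chromosome 17, with 46.9%, 36.3%, 48.3% and 46.4%. Every window was above the rest of its own chromosome in each list, where no share passed 24.6%.

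Merging overlapping peaks gave 12356 pericentromeric regions, of which 7434 (60.2%) were held by 1 list, 2113 by 2, 1177 by 3 and 1632 (13.2%) by all 4. Of the 89820 regions on the rest, 83423 (92.9%) were held by 1 list, 4992 by 2, 687 by 3 and 718 (0.799%) by all 4. Regions of 1 list were of similar number, with 1677 of DMSO, 1979 of SHP1705, 2058 of MG132 and 1720 of the combination. A further 400 regions were held by DMSO, MG132 and the combination and not by SHP1705. Where a region recurred, the distance between its summits was measured, which the overlap of the peaks already limits. Each DMSO summit was paired with every summit of the other list in the same merged region. The median distance over these pairs was 76 bp under SHP1705, 69 bp under MG132 and 74 bp under the combination. On the rest it was 88.5, 79 and 83.5 bp. Of the pairs, 41.4%, 42.7% and 42.6% lay within 50 bp in the windows, and 39.0%, 40.7% and 41.5% on the rest. Summit placement thus differed little between windows and rest, unlike the share of peaks that recurred.

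Recurrent pericentromeric regions were the taller ones in every list. Over regions held by 1, 2, 3 and 4 lists, the median height in DMSO was 5.18, 6.83, 8.41 and 19.4 FPM. It was 0.744, 0.947, 1.04 and 1.85 in SHP1705. MG132 gave 4.51, 5.94, 9.45 and 19.7, and the combination 5.05, 6.23, 8.29 and 17.5. The rest of the chromosomes showed the reverse order in DMSO, at 8.48, 8.01, 2.19 and 1.88 FPM, in MG132, at 5.42, 5.17, 3.15 and 2.09, and in the combination, at 7.20, 6.85, 3.53 and 1.80. SHP1705 rose there as well, from 0.727 and 0.942 to 12.6 and 47.2. Within each list, regions in all 4 lists were thus the tallest window group. Across lists their SHP1705 median was below the others in FPM, while scaled by the rest in DMSO units it was 19.3, beside 19.4 under DMSO, 30.01 under MG132 and 20.3 under the combination.

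**Figure D3:**
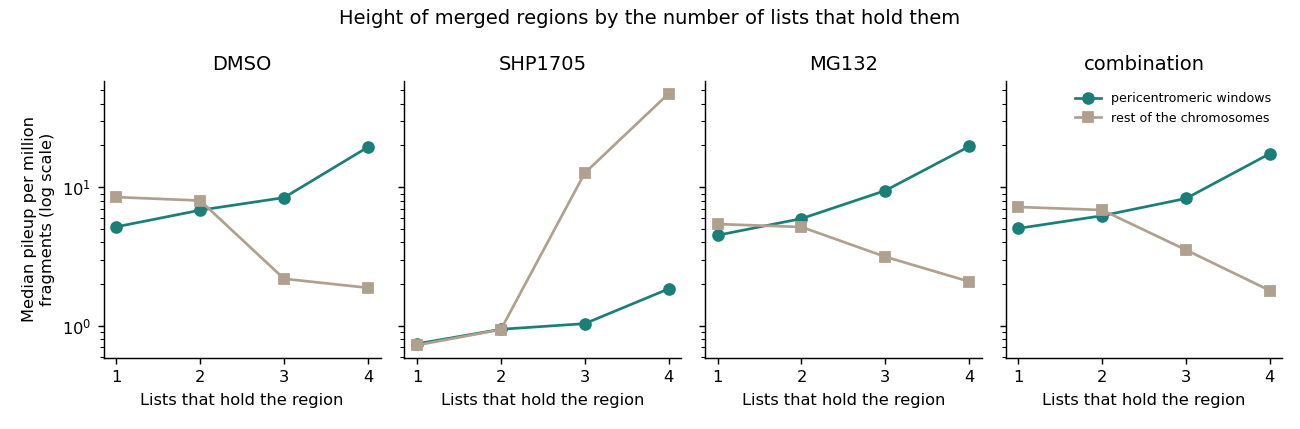
Median pileup per 1000000 fragments (log scale) of merged regions against the number of lists that hold them, 1 panel per list, for the windows and for the rest of the same chromosomes. Window medians rise from 1 to 4 lists in every panel, from 5.18 to 19.4 in DMSO, while the medians of the rest fall in all panels but SHP1705, where they reach 47.2.

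Heights were then compared with DMSO at regions that both lists held, so the 3 comparisons share the DMSO list. At 2457 pericentromeric regions held by SHP1705 and DMSO the median height was 1.46 FPM in SHP1705 and 15.4 in DMSO. The median log2 ratio was −3.34 (−3.38 to −3.30) when heights were scaled to library fragments, and 0.040 when each list was scaled by the median height of its peaks on the rest. Scaled to fragments, 2355 regions (95.8%) were over 2-fold lower and 26 (1.06%) over 2-fold higher, where 69.9% and 24.6% of all 8597 such regions of chromosomes 1 to 22 and X were. Scaled by the rest, 12.8% were lower and 16.8% higher, against 11.7% and 41.9% of all regions. Scaled to fragments, the 1875 regions on the rest had a median log2 ratio of 2.07 and fell into 2 parts. Of them 52.5% were over 2-fold higher and 38.9% over 2-fold lower. Scaled by the rest, their median log2 ratio was 5.45, with 69.2% higher and 10.7% lower. That scaling rests on list medians of 0.778 FPM in SHP1705 and 8.11 in DMSO, from lists of unlike depth and length. Under both scalings the windows lay below the rest at the median. The low side was thus a property of nearly all pericentromeric regions relative to fragments. The sign of the window median depended on the scaling. By window the fragment-scaled median log2 ratio ran from −3.54 on chromosome 7 to −2.76 on chromosome 21. Gene-holding parts, with 135 regions, had a median log2 ratio of −2.61, and 22 of the 26 higher regions lay there.

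Scaled to fragments, MG132 and the combination stayed near DMSO at the median. At 2678 regions held by MG132 and DMSO the medians were 13.9 and 13.2 FPM and the median log2 ratio was 0.06 (0.03 to 0.09), or 0.67 when scaled by the rest. Of these regions 381 (14.2%) were over 2-fold higher and 343 (12.8%) over 2-fold lower, against 13.4% and 16.4% of all 8873 regions. Scaled by the rest, 33.8% were higher and 5.12% lower, against 29.4% and 8.38% of all regions. At 2533 regions held by the combination and DMSO the medians were 12.7 and 13.6 FPM and the median log2 ratio was −0.06 (−0.09 to −0.02), or 0.16 when scaled by the rest. Here 351 (13.9%) were higher and 389 (15.4%) lower, against 13.1% and 15.8% of all 8158. Scaled by the rest, 18.1% were higher and 11.6% lower, against 16.7% and 12.6% of all regions. The shares in both comparisons were close to those of all regions, which is no result about the pericentromere. Both median ratios were small beside the scaling, which turned the sign of the second. The heights of the same regions ran in a similar order, with Spearman's rho over regions of 0.79 for MG132, 0.76 for the combination and 0.67 for SHP1705 against DMSO. On the rest rho was 0.66, 0.68 and −0.36. Neighbouring regions and library depth are shared among these points, so the values are descriptions.

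**Figure D4:**
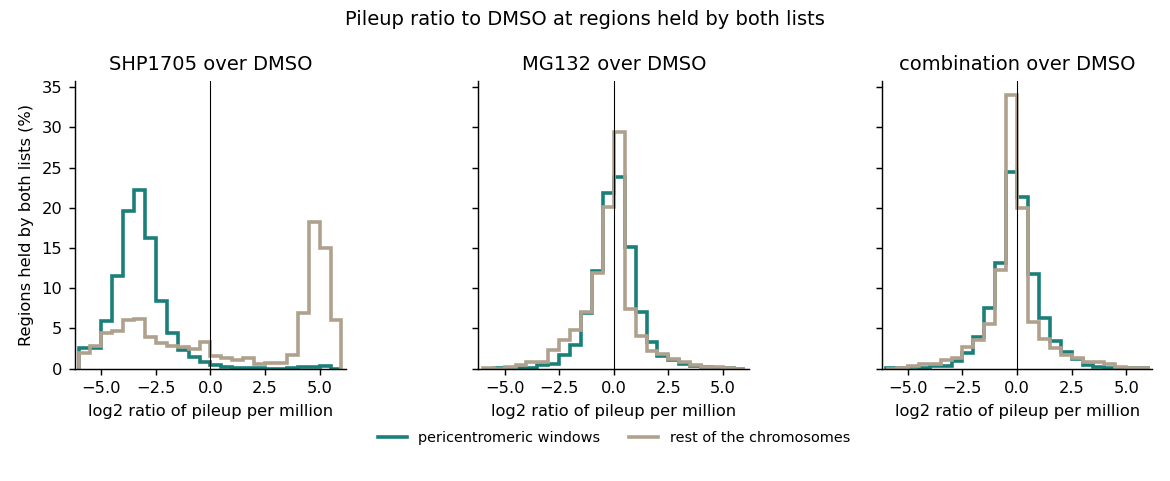
Share of regions held by both lists (%) by the log2 ratio of pileup per 1000000 fragments to DMSO, in bins of 0.5, 1 panel per treatment, for the windows and for the rest of the same chromosomes, with ratios beyond 6 in either direction put in the outermost bins. Window regions peak near −3.34 in SHP1705 and near 0 in MG132 and the combination, while the rest forms a second group far above 0 in SHP1705.

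The tallest regions lay on no annotated gene. The highest of all, on chromosome 1 from 125179321 to 125180660, reached 7606 FPM under DMSO, 407 under SHP1705, 6386 under MG132 and 6752 under the combination. A neighbour from 125182408 to 125183103 reached 2128, 175, 2593 and 2306. Further along the same window, the region from 143261895 to 143264185 reached 3352, 190, 2506 and 2614. In all 3 regions SHP1705 lay far below the other lists in FPM. The region from 143246735 to 143247360 reached 3012, 184, 2374 and 3212 FPM. On chromosome 17 the region from 26882062 to 26882805 reached 1701, 161, 1248 and 1379. These 5 regions were the tallest held by every list, ranked by the lowest of the 4 heights, and a fragment-scaled SHP1705 height below the others was common to them.

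In the windows of other chromosomes the tallest peak also lay on no annotated gene, with the exceptions named here, and it need not be at the same place in each list. On chromosome 5 the tallest reached 1468 FPM under DMSO, 110 under SHP1705, 1341 under MG132 and 1503 under the combination. On chromosome 10 they reached 457, 45.0, 468 and 708, and on chromosome 20 they reached 783, 63.6, 728 and 842. SHP1705 was the lowest list in FPM in each of these windows, but scaled by the rest in DMSO units its peak on chromosome 10 stood at 469, above the 457 of DMSO, while on chromosomes 5 and 20 it stayed lowest with 1149 and 663. On chromosome 16 the tallest reached 677, 46.8, 720 and 703, and on chromosome 2 they reached 357, 54.0, 350 and 335. Scaled by the rest, SHP1705 stayed lowest on chromosome 16 with 488 but was the highest list on chromosome 2 with 564. On chromosome 7 the combination was highest in FPM, with 218 under DMSO, 45.1 under SHP1705, 167 under MG132 and 443 under the combination. Scaled by the rest, the combination there stood at 514, close to the 470 of SHP1705 and above 255 under MG132 and 218 under DMSO. On chromosome 22 the tallest reached 67.7 under DMSO, 54.1 under MG132 and 124 under the combination on no gene, and 33.6 in SHP1705 on ATP6V1E1, which encodes a subunit of the vacuolar proton pump. Scaled by the rest, SHP1705 was the highest list on chromosome 22 with 350, beside 144 under the combination. On chromosome 21 SHP1705 was the highest list in FPM, with 63.7, 148 and 146 on no gene under DMSO, MG132 and the combination, and 350 under SHP1705 on the ribosomal RNA gene RNA18SN3.

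Single regions departed from this order. One on chromosome 1, from 122224275 to 122225170, stood at 226 FPM under DMSO, 0.668 under SHP1705, 5.94 under MG132 and 0.847 under the combination, the smallest ratio to DMSO in each of the 3 comparisons. It was a tall pile in the DMSO library and a low one in the others. The largest ratio of MG132 was on chromosome 21 from 5297457 to 5299013, with 1.25 under DMSO, 0.482 under SHP1705, 47.3 under MG132 and 10.2 under the combination, 38.0-fold above DMSO in MG132. On chromosome 1, from 122416390 to 122417471, the values were 0.707, 1.39, 14.1 and 19.9, so both libraries with MG132 were above the other 2. Among the 5 largest ratios of the combination was a region on chromosome 2, from 93672688 to 93673789, on no annotated gene. It had 2.69 under DMSO, no peak under SHP1705, 26.5 under MG132 and 117 under the combination, a 43.4-fold ratio. These regions were chosen for their ratio and have 1 library per treatment behind each value.

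Regions held by 1 list could also be tall. The tallest held by MG132 alone, on chromosome 1 from 125177349 to 125177721, reached 644 FPM and lay close to the highest region of all. The tallest held by DMSO alone reached 187, on the same chromosome from 143224136 to 143224627. In the combination it reached 126, on chromosome 10 from 41885732 to 41886416, and a further one of 73.8 lay in SRGAP2C, a human-specific copy of a gene of neuronal migration. All but the SRGAP2C region lay on no annotated gene. In SHP1705 the tallest region of its own lay on the ribosomal RNA gene RNA28SN2 with 171.

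Of the 26 pericentromeric regions over 2-fold higher in SHP1705 than in DMSO, 13 lay on chromosome 21, 5 on chromosome 17, 3 on chromosome 20, 2 on chromosome 10 and 1 each on chromosomes 2, 16 and 22. Only 6 of them lay on no annotated gene, and 9 lay on ribosomal RNA genes of the short arm of chromosome 21, which encode the structural RNA of the ribosome. On chromosome 17 the tallest such region, on the pseudogene TUFMP1, reached 2.25 FPM in DMSO and 61.6 in SHP1705. At MAP2K3, a kinase of the p38 cascade on the same chromosome, the values were 0.707 and 22.9, and at the pseudogene EIF3LP2 on chromosome 10 they were 1.58 and 42.1.

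The small subunit ribosomal RNA genes held 3 of the 5 tallest SHP1705 peaks of the windows. The RNA18SN1 copy, of the small subunit, reached 9.86 FPM under DMSO, 347 under SHP1705, 11.1 under MG132 and 9.18 under the combination. RNA18SN2 reached 9.05, 350, 10.6 and 8.97, and RNA18SN3 reached 9.49, 350, 11.5 and 8.54. SHP1705 was 38.7-fold above DMSO at RNA18SN2 and 36.9-fold at RNA18SN3, while MG132 and the combination were near DMSO. SHP1705 was also the highest list at the large subunit copies, where the tallest peaks of a gene need not lie at the same place in each list. RNA28SN1 reached 5.38 under DMSO, 150 under SHP1705, 5.94 under MG132 and 5.40 under the combination. RNA28SN2 reached 4.95, 171, 4.07 and 5.75, and RNA28SN3 reached 5.59, 170, 5.94 and 4.38. The SHP1705 peaks of 171 and 170 were held by that list alone, and at the regions of RNA28SN2 and RNA28SN3 shared with DMSO that had the largest ratios both reached 151 against 4.07. Of 12 ribosomal RNA genes in the windows 9 had a peak in every list, and the 3 copies of the short 5.8S gene, RNA5-8SN1, RNA5-8SN2 and RNA5-8SN3, had none.

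The longer genes RNA45SN1, RNA45SN2 and RNA45SN3, the precursors, contain the others, so these counts are not independent. The copies are near-identical and share fragments, and the level of a single copy is uncertain. The pseudogene RNA18SP5 followed them with 8.78, 197, 7.18 and 5.68 FPM. So did an unannotated region on chromosome 21 from 8988184 to 8988736, with 3.16, 122, 2.82 and 2.44, 38.6-fold above DMSO in SHP1705. The 5 largest SHP1705 ratios of the windows were these: 4 on ribosomal RNA genes and this region. These ratios grow under the scaling by the rest, which moves every SHP1705 ratio up.

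**Figure D5:**
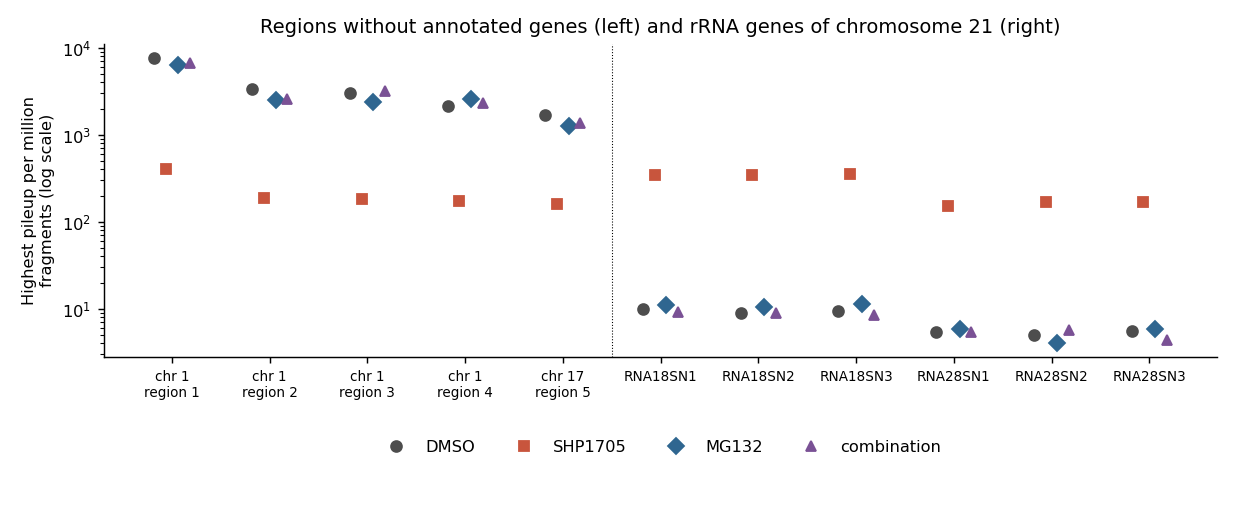
Highest pileup per 1000000 fragments (log scale) in each list, 1 library per point, at the 5 tallest regions held by all lists (left, no annotated gene, regions 1 to 4 on chromosome 1 and region 5 on chromosome 17) and at 6 ribosomal RNA genes of chromosome 21 (right). SHP1705 lies lowest on the left, from 161 to 407, and highest on the right, from 150 to 350.

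Genes held few of the peaks. Peaks overlapped a gene in 266 cases under DMSO (5.04%), 570 under SHP1705 (10.2%), 431 under MG132 (7.34%) and 297 under the combination (5.55%). Of 970 annotated genes in the windows 442 had a peak in at least 1 list. By type these were 116 of 138 protein-coding genes, 133 of 220 long noncoding RNA genes, 127 of 416 pseudogenes, 52 of 67 transcribed pseudogenes, 9 of 12 ribosomal RNA genes, 3 of 17 microRNA genes and 2 of 40 antibody or receptor V segments. SHP1705 reached 94 of the 138 protein-coding genes, against 62 under DMSO, 69 under MG132 and 61 under the combination. The share of genes with a peak outside the windows is not given here. Whether these gene counts are particular to the windows was therefore not tested. The SHP1705 list had the most peaks on genes, in count and in share. It also led on the rest of the chromosomes, where 77.8% of its peaks lay on a gene, against 64.2% under DMSO, 63.4% under MG132 and 63.2% under the combination.

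Among the protein-coding genes with most peaks were KSR1, SRGAP2C, MICAL3, NBPF26 and ABHD12, the last 2 tied. KSR1, a scaffold of the RAS to ERK cascade on chromosome 17, held 8 peaks under DMSO, 10 under SHP1705, 9 under MG132 and 1 under the combination, with 8.65, 4.57, 11.5 and 15.3 FPM at the tallest. SRGAP2C held 9, 6, 5 and 7 peaks, and at the tallest 14.5, 2.69, 4.10 and 73.8 FPM. MICAL3, an actin-oxidizing enzyme gene on chromosome 22, held 2, 15, 4 and 4. NBPF26, of a family copied many times on chromosome 1, held 4, 7, 3 and 2. The order of the lists differed from gene to gene, in number and in height. ABHD12, a lipid hydrolase gene on chromosome 20, held 3, 5, 3 and 5 peaks, and reached 7.94, 33.5, 3.37 and 15.4 FPM. It overlaps PYGB, a glycogen phosphorylase gene, whose tallest SHP1705 peak was also 33.5 FPM. SRGAP2C and NBPF26 have near-identical copies, so fragments there cannot be placed with certainty. A pileup on a gene counts fragments of the STARR-seq library. Whether it follows how much the cells expressed that gene was not tested.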

How the data were processed

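STARR-seq reporter RNA of MDA-MB-231 was read in 4 libraries, 1 per treatment, with labels giving the groups. The submitters' processing notes name hg38 as the build, with Bowtie2, Trimmomatic, FastQC and MACS2 as tools. How reads with several alignments were treated is not given in the sources used here, nor are the other tools' versions. MACS 2.2.6, per the file headers, called peaks in each library alone from paired fragments, at a q limit of 0.01, without a control library, keeping duplicates, and with a local background over 10000 bp. Fragments numbered 29717604 under DMSO, 118324303 under SHP1705, 27289266 under MG132 and 28331486 under the combination. The signal is the authors' summit pileup, unscaled, as deposited. The fold is the ratio of pileup to local background, as deposited by the authors, and was used within a list only. The −log10 q values are the authors' and ranked the peaks for the lists of equal length, with ties ordered by pileup. The −log10 p values, also the authors', were not used. Keeping duplicates and having no control leaves amplified fragments and repeat copy number in the pileup.

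From these, pileups were expressed per 1000000 fragments, and peaks were merged across lists by at least 1 bp, in Python 3.11.15 with NumPy 2.4.6, pandas 2.3.3 and SciPy 1.17.1. Helper functions were tested on simulated data. Shares have Wilson 95% intervals and medians order-statistic 95% intervals. No test was run, since each treatment had 1 library. The length of a chromosome was taken up to the end of its last peak. Genes, promoters and microRNAs came from RefSeq tables of GRCh38.p14, whose primary chromosomes have hg38 coordinates. Named regions were the 5 tallest per list, the tallest per window and list, the 5 held by all lists with the highest lowest pileup, the 5 largest and 5 smallest ratios per treatment, the 3 tallest of each list alone and the 5 protein-coding genes with most peaks, with ties kept. 1 item that the rule names is not reported here. The members and these lists were chosen with earlier results of these data known. Alternatives were a width limit, lists of equal length, a fold limit, whole peaks in the window and another comparison set. Further ones were a stricter overlap, another scaling and each chromosome left out.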

Additional observations from a re-analysis of the deposited data

How the results depend on the processing

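The share of peaks in the windows was, with a fold of at least 5, 15.3% under DMSO, 11.9% under MG132 and 13.4% under the combination. With the 47822 strongest peaks of each list it was 15.5% under SHP1705, 14.0% under MG132 and 16.4% under the combination, and with peaks of at least 355 bp it was 13.0% in SHP1705. Against all of chromosomes 1 to 22 and X it was 11.03% under DMSO, 6.48% under SHP1705, 8.41% under MG132 and 9.36% under the combination. Median width was 483 bp in SHP1705 at the width limit, and 482, 498 and 491 bp in SHP1705, MG132 and the combination at equal length. In the same lists median height was 10.9, 12.4 and 9.79 when scaled by the rest in DMSO units, and per 1000000 fragments it was 1.73, 17.2 and 12.9 at equal length, and 1.17 in SHP1705 at the width limit. Sharing with another list was 63.6%, 60.2%, 60.7% and 63.3% in DMSO, SHP1705, MG132 and the combination for an overlap of 50% of the shorter peak, and 52.1%, 67.3%, 68.6% and 65.7% at equal length. At the width limit it was 67.4% under SHP1705, 63.2% under MG132 and 66.0% under the combination. Without the SHP1705 list, an alternative chosen after seeing the data, it was 61.3% under DMSO, 58.5% under MG132 and 61.5% under the combination. Of the 500 tallest peaks, 58.4% in DMSO and 62.4% in the combination lay in the windows. The median log2 ratio to DMSO scaled by the rest turned from −3.34 to 0.040 in SHP1705 and was 0.67 in MG132 and 0.16 in the combination, and over regions in all 4 lists it was −3.38 in SHP1705. The other 23 values moved by less than their counting interval. Against the same chromosomes, the share of each list stayed above the 7.15% of length that the windows make up.

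Each of the 10 chromosomes was left out in turn, its window and its rest together. The share then ranged from 22.7% to 25.6% under DMSO, 13.2% to 14.6% under SHP1705, 17.1% to 19.6% under MG132 and 19.0% to 21.9% under the combination. Median width ranged from 476 to 481 bp, 441 to 445 bp, 477 to 481 bp and 479 to 483 bp in the same order. Median height ranged from 7.69 to 9.62, 0.955 to 1.10, 7.26 to 8.87 and 7.62 to 9.14 per 1000000 fragments, and sharing from 66.2% to 69.6%, 62.6% to 65.7%, 62.8% to 66.6% and 66.0% to 69.1%. No paired analysis was possible because each treatment has 1 library.

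With 1 library per treatment there is no spread between replicates, and counting intervals leave out the error between libraries. How fragments with several alignments were placed is not known here, duplicates were kept, and repeat copy number in the plasmid library was not analysed here. The SHP1705 library is deeper by fragments and its caller accepted narrower peaks, so its counts and widths are not matched to the others. No repeat annotation was used, so satellite classes were not separated.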
